A study of Gallus gallus with 10 samples.

Results

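The optic tectum (TeO) is the roof of the midbrain. In birds it is a large, layered structure that receives the axons of retinal ganglion cells and processes visual input, and it is the counterpart of the mammalian superior colliculus. During normal development its position and polarity are set by the isthmic organizer, a signalling centre at the border of midbrain and hindbrain. This organizer is known for secreting FGF8 and WNT1. Tissue of the caudal diencephalon can be turned towards a tectal fate when such signals are placed next to it. The genes described here are 49 chicken genes with a high level in the natural TeO and a lower, similar level in both the ectopic, induced optic tectum (iTeO) and the normal chicken cerebral cortex (NCC), out of 24881 chicken genes in the table.

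Expression was measured by RNA sequencing of bulk tissue in 10 libraries, all labelled wild type. The iTeO group held 4 libraries of the tissue that formed in hosts after sheets of human neuroepithelial cells (NECs) were implanted into the anterior diencephalon of HH11 chick embryos, 2 with NECs from human embryonic stem cells, called iTeO (ES), and 2 with NECs from human induced pluripotent stem cells, called iTeO (iPS), both made by the 3-day differentiation protocol. The TeO group held 3 libraries of natural tectum and the NCC group 3 libraries of cerebral cortex. The methods give a default time of sacrifice for grafted embryos, late in incubation, which no label repeats for the single libraries. The age of the TeO and NCC embryos and whether a library came from 1 embryo or several are not given in the sources used here, which also do not say whether the TeO and NCC embryos carried a graft. Each donor cell kind stood for 1 cell line (RH6 for ES, RiPSC4 for iPS), and the group comparison asked how closely the ectopic tissue matched natural tectum rather than cortex. Since separate embryos are not documented, every replicate spread given here is the spread between libraries. Among the TeO libraries, 21 of the 24881 chicken genes had 3 or fewer counts in some library and were clearly counted in another. None of the genes described here was among them. The rule given below asks for a high level in the lowest TeO library, which largely sets this, so nothing is read from it. Whether libraries of a tissue came from different embryos, and how much of the spread is technical, was not tested.

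Total counts ran from 7832388 to 11631102 per library, so that 1 count was worth 0.0861 to 0.128 CPM, the count scaled to a total of 1000000 chicken counts. Counting and confidence limits cover counting error only. Reads had been assigned to a joint human and chicken reference. Human genes took 0.371% of the counts in iTeO (ES) 1 (95% Wilson interval 0.367% to 0.375%) and 0.299% in iTeO (iPS) 1 (0.295% to 0.302%), against 0.123% to 0.137% in the TeO and NCC libraries. iTeO (ES) 2 and iTeO (iPS) 2 lay in that range, at 0.129% and 0.124%. The most counted chicken gene took 13.3% to 15.2% of the chicken counts in iTeO, 19.8% to 22.04% in TeO and 18.5% to 20.2% in NCC. In CPM the median tested gene was 0.21 higher in iTeO than in TeO and 0.22 higher in iTeO than in NCC on the log2 scale, and these shifts were 0.0092 and 0.0082 after TMM scaling, which sets library sizes on the bulk of the genes. The identifiers were not paired with gene symbols, so the defining markers of tectum and cortex could not be looked up and genes are named by identifier only, with no function. A CPM value also depends on the length of a gene, so levels are compared between libraries and not between genes.

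The 49 genes were chosen on their measured CPM values. A gene was taken when its TeO mean was at least 2 CPM and more than 2 times both the iTeO mean and the NCC mean, when the iTeO mean was within 0.5 to 2 times the NCC mean after 0.1 CPM was added to each, and when its lowest TeO library exceeded the highest of the 7 iTeO and NCC libraries. The differences between TeO and the other tissues are therefore given below as a description with no test. At the edges of the rule, the gene just inside the limit on iTeO had a TeO mean 2.01 times its iTeO mean and the gene just outside it 1.95 times. The corresponding ratios over NCC were 2.02 and 1.998, the TeO means next to the minimum were 2.01 and 1.76 CPM, and the iTeO to NCC ratios next to the upper limit were 1.96 and 2.01 and next to the lower limit 0.54 and 0.39. The lowest TeO library was 1.06 times the highest other library in the gene just inside the last condition and 0.996 times in the gene just outside it.

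In plain CPM, these genes were a small share of the genes that mark TeO over NCC. There were 858 chicken genes with a TeO mean of at least 2 CPM, more than 2 times the NCC mean, and with no overlap between TeO and NCC libraries. In 763 of them (88.9%) the iTeO mean reached at least 50% of the TeO mean, and the median gene of these 763 stood at 99.0% of TeO. In the other 95 genes iTeO was below 50% of TeO: it was still more than 2 times NCC in 38, below 0.5 times NCC in 3, and within the band around NCC in 54, of which 5 overlapped between iTeO and TeO libraries and 49 are the genes described here (5.71% of the 858). The median ratio of TeO to NCC was 3.90 in the 49 genes and 2.72 in the 753 of those 763 genes that had counts in NCC. The rule used this ratio and the level in iTeO, so the difference describes the choice and nothing is read from it. The genes with the largest TeO to NCC ratios were not among the 49, whose highest ratio was 9.28. All these values are in plain CPM, in which the median tested gene was 0.21 higher in iTeO than in TeO on the log2 scale. With TMM scaling 88 genes met the rule, and the other shares were not computed on that scale.

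**Figure D1:**
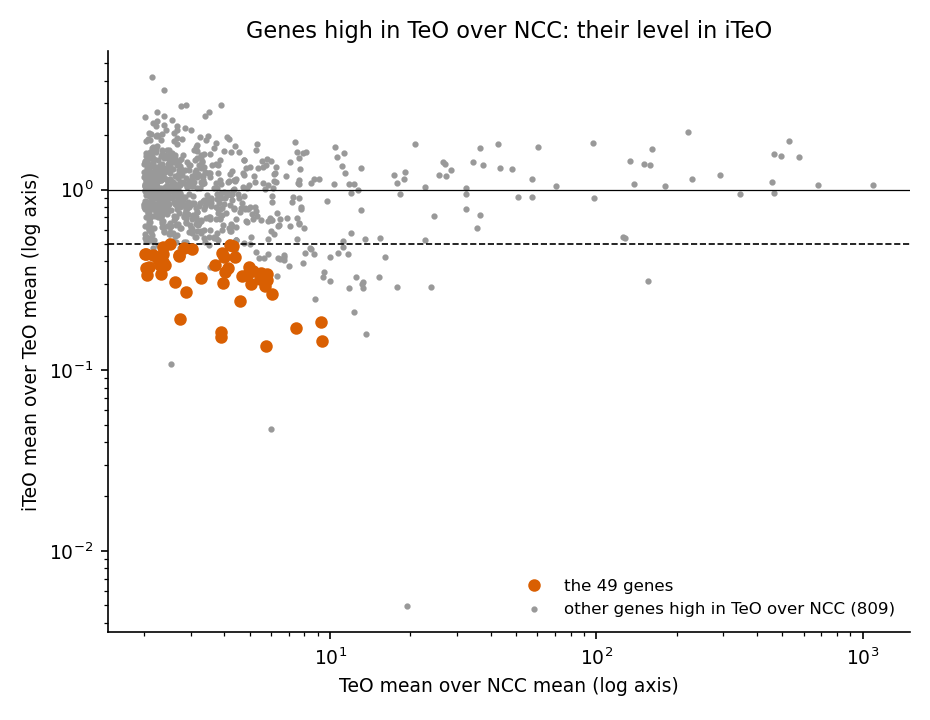
Each point is 1 of the 858 chicken genes high in TeO over NCC, with the TeO mean over the NCC mean on the horizontal log axis and the iTeO mean over the TeO mean on the vertical log axis; the solid line marks equal iTeO and TeO levels and the dashed line 50%. The 49 genes (orange) lie below the dashed line at TeO to NCC ratios of 2.02 to 9.28, while most of the others (grey) lie above it; means under 0.02 CPM (11 genes in NCC, 1 in iTeO) are drawn at 0.02.

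In these 49 genes the transcripts were reduced in iTeO rather than absent, and the rule had a part in this. It left out genes with an iTeO mean below 0.5 times the NCC mean after the addition of 0.1 CPM. Among the genes high in TeO over NCC and under 50% of TeO in iTeO, 3 were left out by that limit. Their iTeO means were 0.108 times the TeO mean or lower, so the rule removed genes closer to absence than any of the 49. The iTeO mean of the 49 genes was 13.6% to 49.9% of the TeO mean, with a median of 35.4%, and the NCC mean was 10.8% to 49.5% of it, with a median of 25.6%. None of the 49 had 3 or fewer counts in all 4 iTeO libraries, and 34 had at least 10 counts in every one of them. In 3 genes, named here after their values were seen, at least 1 iTeO library had 3 or fewer counts: ENSGALG00000041817, ENSGALG00000035825 and ENSGALG00000039764. ENSGALG00000035825 had 2 counts in iTeO (ES) 2 and 2 in iTeO (iPS) 2. ENSGALG00000039764 had 0 counts in iTeO (iPS) 1, which allows a level of up to 0.384 CPM, and 8 to 10 counts in the other 3 iTeO libraries. The word missing, used as a working name for the set, therefore went against the counts, and the genes are called low in iTeO below. In bulk tissue, fewer cells of a type and less RNA per cell cannot be told apart.

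**Figure D2:**
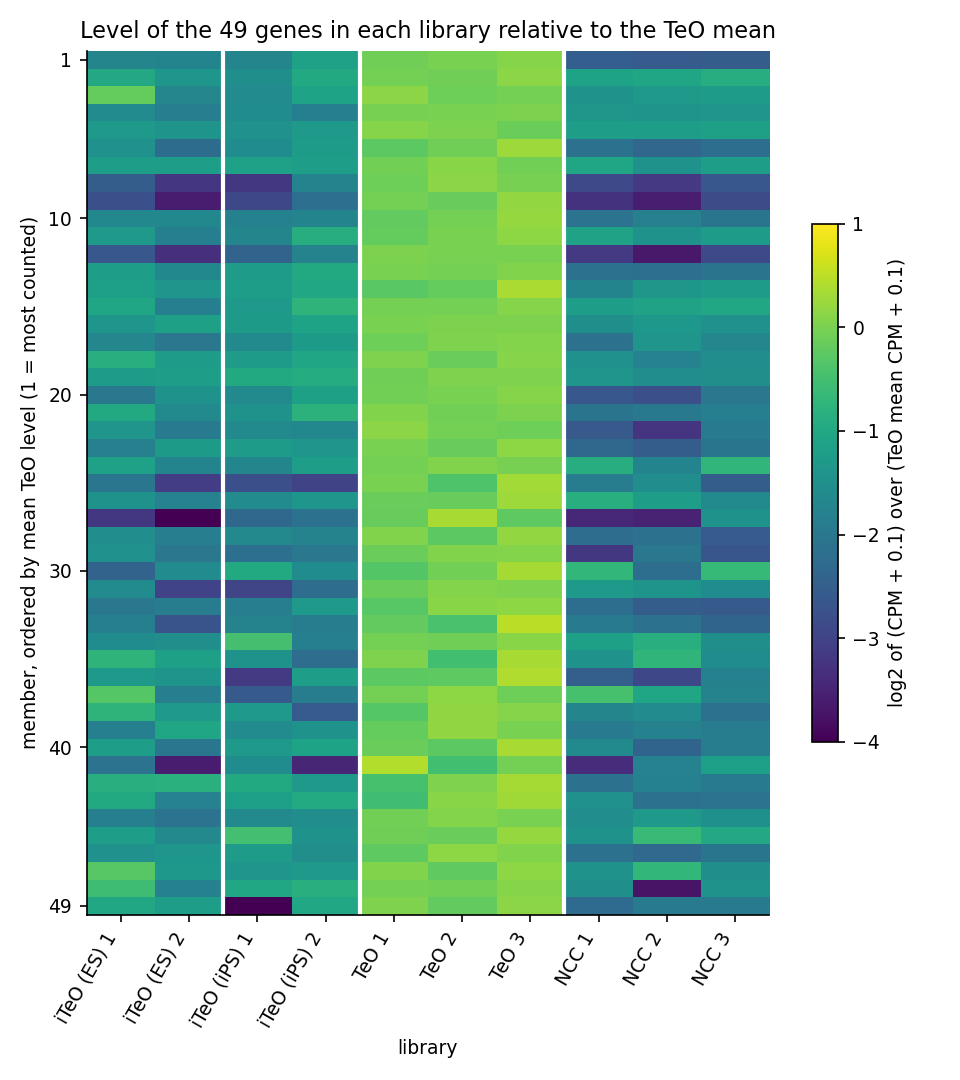
Each row is 1 of the 49 genes, ordered by TeO mean, and each column 1 library; colour gives log2 of (CPM + 0.1) over (TeO mean CPM + 0.1), and the darkest colour also covers values below the scale. The 3 TeO columns stand out in every row because the genes were chosen that way; within the iTeO block the column of iTeO (ES) 2 is the darkest of the 4 in 28 rows.

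The levels in TeO covered a wide range. TeO means ran from 2.01 to 498 CPM with a median of 15.5 CPM, and 11 of the 49 genes were at or above 100 CPM, 19 between 10 and 100 CPM and 19 below 10 CPM. Summed over the 49 genes, the level was 1576, 1104, 1194 and 1529 CPM in iTeO (ES) 1 and 2 and iTeO (iPS) 1 and 2, against 3586, 3589 and 3871 CPM in the TeO libraries. In the NCC libraries the sums were 1178, 1162 and 1256 CPM. The iTeO sums lay on both sides of the NCC sums, and the TeO mean (3682 ± 164 CPM, SD, n = 3) was 2.73 times the iTeO mean (1351 ± 237 CPM, n = 4) and 3.07 times the NCC mean (1199 ± 50.1 CPM, n = 3). The 5 most counted genes held 56.5% of the TeO sum, so the sum describes mainly those.

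The most counted of the 49 in TeO was ENSGALG00000010055, at 150.2, 148, 151 and 225 CPM in iTeO (ES) 1 and 2 and iTeO (iPS) 1 and 2. Its TeO libraries held 472, 493 and 529 CPM and its NCC libraries 88.0, 84.5 and 86.6 CPM. All 4 iTeO libraries lay between the other tissues without touching either, so this gene was lowered to 33.9% of TeO in iTeO and still stood 1.95 times above NCC, near the upper limit of the rule. Its fitted log2 fold change was -1.76 (SE 0.12) for iTeO over TeO and 0.74 (SE 0.13) for iTeO over NCC.

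The second, ENSGALG00000042784, had 251, 193, 174 and 254 CPM in the iTeO libraries in the same order, against 479, 465 and 544 CPM in TeO. NCC held 232, 238 and 267 CPM. Here the iTeO and NCC libraries overlapped, and the TeO mean was 2.27 times the iTeO mean and 2.02 times the NCC mean, next to the limit on NCC. With TMM scaling it fell outside the rule, as did ENSGALG00000000104, described below, both named for this after their values were seen.

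The third, ENSGALG00000011117, was singled out after its values were seen because 1 library set its mean. iTeO (ES) 1 held 412 CPM and the other iTeO libraries 144, 155 and 217 CPM, against 508, 436 and 454 CPM in TeO and 170.4, 189 and 197 CPM in NCC. In iTeO (ES) 1 the level was close to the lowest TeO library, while the other 3 iTeO libraries spanned the NCC range.

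In 4 genes the TeO mean was at least 5 times both other means. Of these, ENSGALG00000033591 and ENSGALG00000013775, had the largest TeO to NCC ratios of the set, and the other two, ENSGALG00000006995 and ENSGALG00000041817, are named after their values were seen. ENSGALG00000033591 had 20.04, 11.2, 18.3 and 30.6 CPM in iTeO, against 135, 124 and 158 CPM in TeO and 14.3, 11.5 and 19.1 CPM in NCC. The iTeO mean was 14.4% of TeO, and the TeO to NCC ratio was 9.28. ENSGALG00000013775 had 16.0, 9.81, 18.8 and 29.4 CPM in iTeO, against 101, 99.2 and 99.8 CPM in TeO and 11.1, 7.87 and 13.4 CPM in NCC. Its TeO libraries agreed within a coefficient of variation (CV, the SD as a percentage of the mean) of 0.729%, whereas the iTeO libraries spread over a 44.2% CV.

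ENSGALG00000006995 had 24.8, 15.5, 15.8 and 42.2 CPM in iTeO, against 134, 157 and 141 CPM in TeO and 19.1, 15.9 and 22.8 CPM in NCC. ENSGALG00000041817 had 1.14, 0.307, 2.18 and 2.48 CPM in iTeO, against 10.01, 14.2 and 9.44 CPM in TeO and 0.947, 0.885 and 4.06 CPM in NCC. In each of these 4 genes, iTeO (iPS) 2 was the highest and iTeO (ES) 2 the lowest of the iTeO libraries, and NCC 3 was the highest and NCC 2 the lowest of the NCC libraries, while the order within TeO differed from gene to gene. With ENSGALG00000004986, both orders occurred in 5 of the 49 genes (10.2%), against 1.14% of the 13999 tested genes. The orders were read from the 4 genes, and the same 4 are among the 5. The difference between these shares therefore follows largely from that reading, and nothing is read from it. Genes read in the same libraries are not independent of each other.

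**Figure D3:**
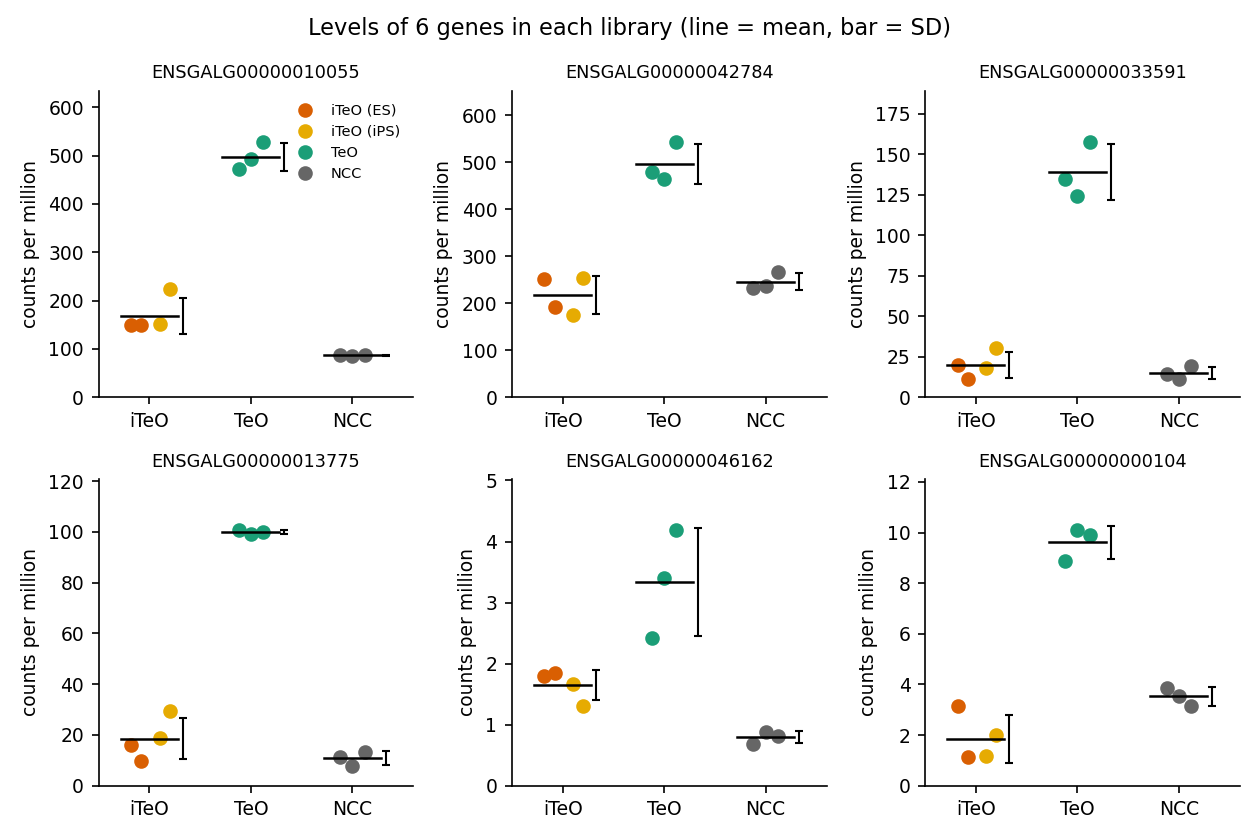
CPM in each library (points; ES orange and iPS yellow within iTeO) for 6 of the 49 genes, with the mean of each tissue as a line and its SD as a bar beside it; each vertical axis starts at 0 and has its own scale. iTeO lies between TeO and NCC in ENSGALG00000010055 and ENSGALG00000046162, overlaps NCC in ENSGALG00000042784, ENSGALG00000033591 and ENSGALG00000013775, and lies below NCC in ENSGALG00000000104.

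Across the whole set, the TeO mean was 5 or more times the iTeO mean in 7 genes, 3 or more times in 17 and under 2.5 times in 16, with a median of 2.82. In the edgeR quasi-likelihood fit over all tested genes (adjusted p under 0.05 and a log2 fold change beyond 1 in either direction), 49 of the 49 genes were called lower in iTeO than TeO, a call that 2.75% of the 13999 tested genes received. Likewise 46 were called higher in TeO than NCC, as were 6.86% of tested genes. Because the rule used both contrasts, these counts describe the choice. The 3 genes without the second call, ENSGALG00000042784, ENSGALG00000034418 and ENSGALG00000020976, had fitted log2 fold changes of 0.99 to 1.01 for TeO over NCC. The first missed the limit on the fold change, and the other two passed it and missed the limit on the adjusted p. The lowest TeO library exceeded all 7 other libraries in 49 of 49 genes by the rule, and in 5.39% of tested genes.

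Between iTeO and NCC the rule allowed up to a 2-fold difference after 0.1 CPM was added to each mean, and small differences in both directions were present. The iTeO mean was above the NCC mean in 32 of the 49 genes and below it in 17 in CPM, with a median ratio of 1.25 after that addition. After TMM scaling 27 fitted log2 fold changes were positive and 22 negative, with a median of 0.10. On a scale where the NCC mean is 0 and the TeO mean is 1, iTeO stood between -0.29 and 0.34, with a median of 0.09. All iTeO libraries were above all NCC libraries in 13 of the 49 genes, against 38.9% of tested genes, and all were below in 4, against 15.8%. The last 4 were ENSGALG00000000104 and, not chosen by a naming rule but from their values, ENSGALG00000017321, ENSGALG00000041140 and ENSGALG00000031996. At any fold change, edgeR called 7 of the 49 genes higher in iTeO than NCC (25.9% of tested genes) and 7 lower (25.5%). With a log2 fold change beyond 1 in either direction, 1 was called, against 16.9% of tested genes. The rule's limit on this ratio holds these counts down, so nothing is read from them.

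ENSGALG00000046162 had the highest iTeO to NCC ratio of the set once 0.1 CPM was added to each mean, at 1.96. It was 1 of 2 genes, with ENSGALG00000004945, named after its values were seen, whose plain means differed by slightly more than 2 times. It held 1.80, 1.84, 1.66 and 1.30 CPM in iTeO, against 2.42, 3.40 and 4.19 CPM in TeO and 0.689, 0.885 and 0.812 CPM in NCC. The tissues did not overlap, but the iTeO libraries rested on 11 to 19 counts each and the NCC libraries on 8 to 10.

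At the other end, ENSGALG00000000104 had 3.13, 1.12, 1.15 and 2.01 CPM in iTeO, against 8.89, 10.1 and 9.89 CPM in TeO and 3.87, 3.54 and 3.16 CPM in NCC. Every iTeO library was below every NCC library, although iTeO (ES) 1 came within 1 count's worth of NCC 3. This was the gene called between iTeO and NCC, with a fitted log2 fold change of -1.12 (SE 0.29). Without iTeO (ES) 2 or without iTeO (iPS) 1 no gene of the set was called, and without iTeO (ES) 1 or without NCC 3 there were 3 calls. ENSGALG00000002845, next in order, had 3.70, 1.74, 2.18 and 1.89 CPM in iTeO, against 15.4, 12.03 and 19.2 CPM in TeO and 4.13, 5.22 and 2.62 CPM in NCC. Its iTeO and NCC libraries overlapped through iTeO (ES) 1 and NCC 3, and its iTeO mean was 15.3% of the TeO mean.

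The iTeO libraries were less alike for these genes than for the average gene. The median CV within iTeO was 26.0% over the 49 genes and 13.8% over all tested genes. Within NCC the medians were 17.0% and 9.78%, and within TeO 10.5% and 9.38%. The CV depends on the depth of a gene's counts, and the sets were not matched on level. The rule also asks for low iTeO and NCC means and a high lowest TeO library. It therefore bears on the spread in every tissue, and nothing is read from the contrast between tissues.

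The ranks of the 4 iTeO libraries were uneven over the 49 genes. iTeO (ES) 2 was the lowest of the 4 iTeO libraries in 28 of the 49 genes (57.1%) and the highest in 2, whereas it was the lowest in 23.6% and the highest in 26.1% of tested genes. iTeO (iPS) 2 was the highest in 22 (44.9%) and the lowest in 5, against 26.0% and 21.8% of tested genes. The remaining libraries, iTeO (ES) 1 and iTeO (iPS) 1, were the highest in 16 and 9 genes (32.7% and 18.4%) and the lowest in 7 and 9 (14.3% and 18.4%). Among tested genes they were the highest in 31.1% and 16.8% and the lowest in 26.9% and 27.7%. Both iTeO (iPS) 2 as highest and iTeO (ES) 2 as lowest occurred together in 16 of the 49 genes (32.7%), against 8.35% of tested genes. This order was first read from the 4 genes described above, which are among the 16, so nothing is read from that difference. The median gene stood at 37.7%, 29.7%, 33.4% and 38.6% of the TeO mean in iTeO (ES) 1 and 2 and iTeO (iPS) 1 and 2. These genes share their libraries and are not independent of each other. The rule asks for a low iTeO mean and holds every iTeO library below the lowest TeO library. It does not fix the order of the 4 libraries, but the ranked values are ones that the choice used. The cause of the uneven ranks was not tested.

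In TeO, library 3 was the highest in 32 of the 49 genes (65.3%), against 47.2% of tested genes. With TMM scaling it was the highest in 25, and the share of tested genes was not computed on that scale. The rule asks for a high lowest TeO library and a high TeO mean, and it places no condition on the order. In NCC, library 3 was the highest in 21 genes (42.9%), against 30.1% of tested genes, and library 2 was the lowest in 22 (44.9%), against 29.1%.

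**Figure D4:**
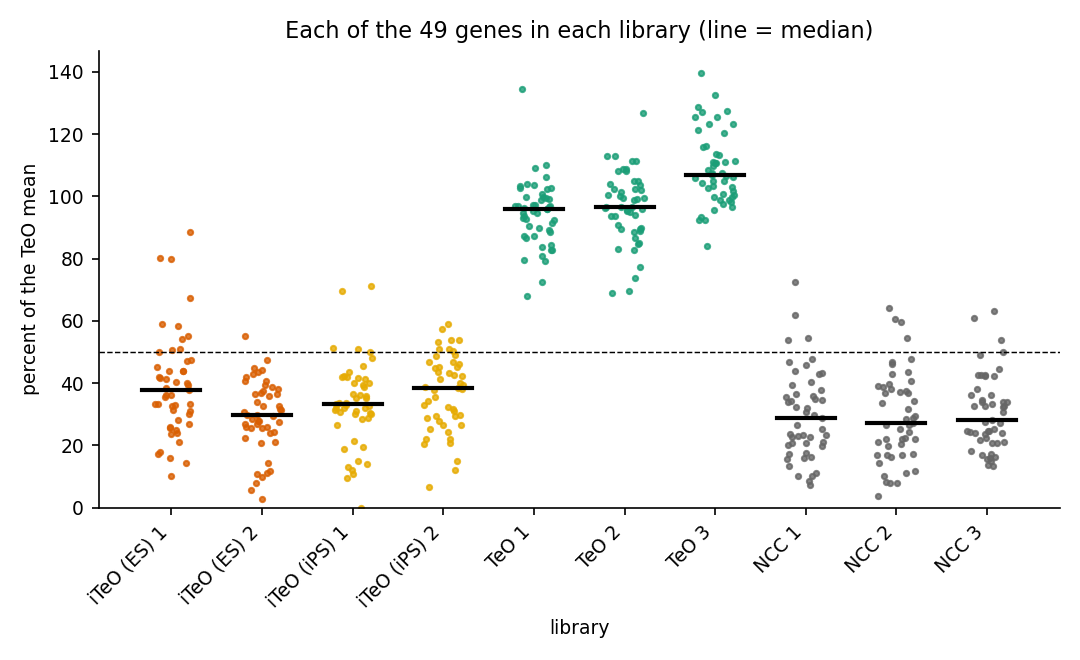
Each point is 1 of the 49 genes in 1 library, as a percentage of that gene's TeO mean, and the black line is the library's median; points are spread sideways for visibility and the dashed line marks 50%. The medians are 37.7%, 29.7%, 33.4% and 38.6% in the 4 iTeO libraries and 28.7%, 27.1% and 28.3% in the 3 NCC libraries, and the TeO values are high because the genes were chosen for it.

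To look at values the choice had not used, the rule was applied to 9 libraries at a time and the genes it took were read in the library left out. When an iTeO library was left out, 50 to 59 genes were taken, and 94.2% to 98.0% of them were below every TeO library in the left-out library, a position held by 22.4% to 25.3% of tested genes. A level below 50% of the TeO mean was found in 34 of 53 genes in iTeO (ES) 1, 44 of 50 in iTeO (ES) 2, 40 of 52 in iTeO (iPS) 1 and 41 of 59 in iTeO (iPS) 2, against 2.72% to 4.39% of tested genes. When an NCC library was left out, 46 to 50 genes were taken and all of these were below every TeO library in it, against 39.1% to 40.3% of tested genes.

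When a TeO library was left out, 50 to 60 genes were taken. In the left-out library 52 of 60, 53 of 59 and 49 of 50 of them exceeded all iTeO and NCC libraries for TeO 1, 2 and 3, against 9.48% to 13.2% of tested genes, and 38, 39 and 39 were more than 2 times the larger of the iTeO and NCC means. Against the TeO libraries that made the choice, most of the genes were also low in the left-out iTeO library. In iTeO (ES) 1 a smaller share passed the 2-fold limit than in the other 3 iTeO libraries. The tested genes given beside these shares were not chosen for a high TeO level, so the shares are not like for like. Of the 49 genes, 29 were taken whichever library was left out and 20 were lost without at least 1. The iTeO libraries still share their tissue and dissection, and the left-out libraries were compared with the same TeO or iTeO libraries that made the choice.

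The split of iTeO by donor cells was not part of the rule and could be tested. The rule did hold every iTeO library below the lowest TeO library. This limits how far 1 donor cell kind could rise above the other, so the counts below are not free of the choice. In a 4-group edgeR quasi-likelihood fit of all 10 libraries, 0 of the 49 genes differed between iTeO (ES) and iTeO (iPS) at an adjusted p under 0.05, with or without the limit on the fold change. The call was rare among all genes, at 0.0143% of those tested (2 genes). At an unadjusted p under 0.05 there were 5 of the 49 (ENSGALG00000010055, ENSGALG00000013775, ENSGALG00000020976 and, taken from their values, ENSGALG00000004986 and ENSGALG00000007116) and 9.18% of tested genes. The smallest adjusted p among the 49 was 0.395, and DESeq2 called 0 of the 46 to which it gave an adjusted p. The standard error of the log2 fold change had a median of 0.34 and a highest value of 0.97 over the 49 genes, so differences of moderate size were not detectable with 2 libraries on each side.

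The fitted log2 fold changes of iTeO (ES) over iTeO (iPS) ran from -1.66 to 1.37, with a median of -0.14, beside 0.0088 over all tested genes and -0.050 over the 763 genes shared by both tecta. They were negative in 32 of the 49 genes and positive in 17, and positive in 51.8% of tested genes. Without iTeO (ES) 2 the median was -0.022, and without iTeO (ES) 1 it was -0.33. Both iTeO (ES) libraries were above both iTeO (iPS) libraries in 4 of the 49 genes (18.2% of tested genes) and below both in 8 (14.4%). Of the 4, ENSGALG00000041578 was named after its values were seen, and the other three were ENSGALG00000046162, ENSGALG00000020976 and ENSGALG00000013247.

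ENSGALG00000013775 had the smallest p of the set in this comparison, with a log2 fold change of -0.91 (SE 0.28, edgeR adjusted p 0.395). The fit took the spread of each gene from all 4 groups together. The SE and p of single genes in this comparison therefore do not measure the iTeO spread alone. For this gene the CV was 0.729% in TeO and 44.2% over the iTeO libraries. Its iTeO (ES) libraries, at 16.0 and 9.81 CPM, were both below its iTeO (iPS) libraries, at 18.8 and 29.4 CPM. With 1 library left out at a time, its log2 fold change ran from -1.31 to -0.57. For ENSGALG00000010055 the log2 fold change was -0.34 (SE 0.13, edgeR adjusted p 0.469), and its iTeO (ES) libraries lay less than 3 CPM below iTeO (iPS) 1, so the difference rested on iTeO (iPS) 2, without which it was -0.051. In the other direction, ENSGALG00000020976 had 4.08 and 1.33 CPM in iTeO (ES), against 0.768 and 1.30 CPM in iTeO (iPS), with a log2 fold change of 1.37 (SE 0.59, edgeR adjusted p 0.522). TeO held 4.92, 5.69 and 4.72 CPM and NCC 3.70, 2.39 and 1.44 CPM. iTeO (ES) 1 was therefore close to TeO and to NCC 1, and the other iTeO libraries were far below both. Without iTeO (ES) 1 the log2 fold change of this gene was 0.33, and without iTeO (ES) 2 it was 1.95.

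ENSGALG00000013247 had 3.42 and 2.56 CPM in iTeO (ES), against 2.05 and 1.18 CPM in iTeO (iPS), with a log2 fold change of 0.88 (SE 0.43, edgeR adjusted p 0.568). Its TeO libraries held 5.95, 4.04 and 7.39 CPM and its NCC libraries 2.07, 3.45 and 1.90 CPM. The groups within iTeO did not overlap for this gene, and both overlapped NCC. With 1 library left out at a time, the log2 fold change ran from 0.51 to 1.34. In the fits that left out 1 library at a time, a single gene was called between iTeO (ES) and iTeO (iPS): ENSGALG00000011117, described above, which passed without iTeO (ES) 2 (log2 fold change 1.14, edgeR adjusted p 0.0133), where iTeO (ES) 1 stood alone and was assumed to vary like the other libraries.

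**Figure D5:**
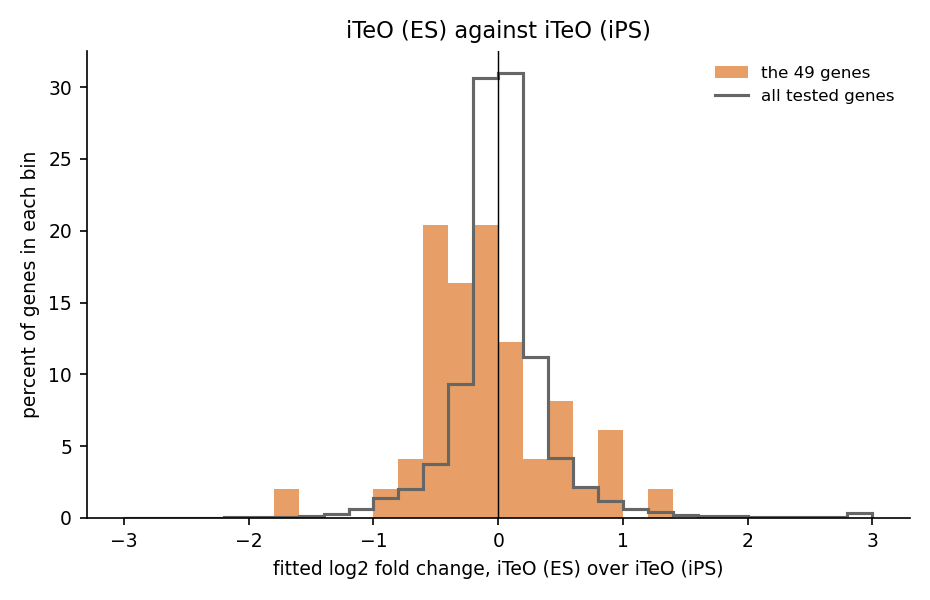
Distribution of the fitted log2 fold change of iTeO (ES) over iTeO (iPS) in bins of 0.2, as the percentage of the 49 genes (filled) and of the 13999 tested genes (line) in each bin; values beyond -3 or 3 are counted in the end bins. The 49 genes spread from -1.66 to 1.37 with 32 of them below 0, and none passed the test.

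The number of genes that met the rule depended on the scaling. With TMM-scaled CPM 88 genes met it, 47 of the 49 among them. Of the 41 genes gained, 30 had a TeO mean 2 or fewer times the iTeO mean in plain CPM and 10 an iTeO mean above 2 times the NCC mean. With the most counted chicken gene left out of the totals 78 genes met it, and this setting was chosen after seeing the data.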

How the data were processed

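The authors trimmed single-end reads with Trimmomatic, aligned them with STAR 2.7.1a to a joint GRCh38 and galGal5 reference and counted them per gene with featureCounts; the deposited values are raw counts for 58302 human and 24881 chicken genes in 10 libraries. Whether counting used strand is not given in the sources used here, so overlapping genes cannot be told apart. No deposited column went without a sample. The table of current gene symbols matched 0 identifiers, so no names, coordinates or sequences are given.

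CPM was computed over chicken counts. The tests used edgeR 4.0.16 in R 4.3.3 (TMM, filterByExpr by tissue, robust quasi-likelihood fit, Benjamini-Hochberg over 13999 chicken genes) with 3 groups, or with 4 for the donor cells. Calls needed an adjusted p under 0.05 together with a log2 fold change beyond 1 in either direction. Scripts were tested on simulated data. Alternatives were DESeq2 1.42.0 (with and without ashr 2.2.63), DESeq2 size factors, other limits, low-count filters, fits of the compared libraries, a replicate block and each library left out.

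The genes and rules were chosen with earlier results of these data known. Genes named by rule were the 2 with the highest TeO mean, the 2 further ones with the largest TeO to NCC ratio, the 2 highest and 2 lowest in iTeO to NCC ratio, and the 2 in each direction with the smallest p for donor cells. Replicate pairs differed by more than sampling noise (chi-square per degree of freedom 4.65 to 16.3), so all 10 libraries were kept. The value of 16.3 was that of the iTeO (ES) pair, the least alike replicates, and the other pairs gave 4.65 to 7.57.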

Additional observations from a re-analysis of the deposited data

Results flagged for a closer look

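In ENSGALG00000010055 the iTeO (iPS) 2 library, at 225 CPM, lay far from the other 3 iTeO libraries, which held 148 to 151 CPM. In ENSGALG00000020976 the iTeO (ES) 1 library, at 4.08 CPM, lay far from the others, which held 0.768 to 1.33 CPM. The same gap test on 4 values marked 7 of the 49 genes (14.3%) and 5.84% of tested genes, and chance marks about 1 group in 20. The far library was iTeO (ES) 1 or iTeO (iPS) 2, as the highest, in 2 genes each, and no library accounted for more than 2 of the 7.

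Counts on human genes, which no comparison here uses, took 0.371% of iTeO (ES) 1 and 0.299% of iTeO (iPS) 1, above the 0.123% to 0.137% of TeO and NCC libraries. Their part in the levels of the 49 genes was not tested.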

How the results depend on the processing

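In place of the 49 genes, 88 met the rule with TMM-scaled CPM, 84 with DESeq2 size factors, 169 when TeO had to exceed both means by 1.5 times, 14 when by 3 times, 31 with the iTeO to NCC ratio held to 0.67 to 1.5 and 78 without the most counted chicken gene, a setting added after seeing the data. The causes were not tested. The other settings gave 37 to 60 genes, and leaving out 1 library at a time 46 to 60.

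The count of genes called between iTeO (ES) and iTeO (iPS) was 0 in every setting that kept all libraries, and 0 to 1 with 1 library left out. The count called between iTeO and NCC was 1, but 0 with at least 10 counts required in every library, where fewer genes were tested, and 0 to 3 with 1 library left out. Of the 33 genes tested with at least 10 counts in every library, 33 were called lower in iTeO than TeO and 32 higher in TeO than NCC. In the other settings these calls numbered 41 to 49 and 42 to 48, and no gene named by rule changed direction. The ratio of summed CPM, TeO over iTeO, ran from 2.57 to 3.13.

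A block on replicate numbers left 47 calls lower in iTeO than TeO, 44 higher in TeO than NCC, 1 between iTeO and NCC and 0 between the donor cell kinds, whose median log2 fold change was -0.18. Whether the numbers pair the samples could not be decided. Deviations of same-numbered TeO and NCC libraries correlated at 0.33, -0.24 and 0.34, and those of differently numbered libraries at -0.51 to 0.33. For iTeO (ES) and iTeO (iPS) the same-numbered value was -0.11 and the crossed value 0.11. With 2 libraries in each group these can differ only in sign. A crossed pairing also gave 0 calls.

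Depth limited the 19 genes below 10 CPM in TeO most. Of the 49 genes, 15 had fewer than 10 counts in at least 1 iTeO library. All of these were below 10 CPM in TeO except ENSGALG00000041817, at 11.2 CPM.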
